A study of Homo sapiens with 29 samples.

Results

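The semaphorins, plexins and neuropilins were taken as every row of the count table whose gene symbol names a class 3 to class 7 semaphorin, a plexin of types A to D, NRP1 or NRP2. This gave 31 of the 28266 gene symbols in the table, made up of 20 semaphorins, 9 plexins and 2 neuropilins. Semaphorins are secreted or membrane-bound guidance cues first known for steering growing axons. Plexins are their main receptors and act on small GTPases and the actin cytoskeleton, and neuropilins are co-receptors that bind the secreted class 3 semaphorins and also VEGF. Fibroblasts express many of these genes, and the family is also known for roles in vessel growth, cell migration and immune responses.

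All libraries came from IMR90 ER:RAS cells, a human lung fibroblast line carrying a retroviral fusion of RAS with an estrogen receptor domain, which is switched on by 4-hydroxytamoxifen (4OHT) and drives oncogene-induced senescence. The study asked how knockdown of SMARCA4, an ATPase of the SWI/SNF chromatin remodeller, alters these senescent cells. DMSO_siNT cells received the vehicle and a non-targeting siRNA, 4OHT_siNT cells received 4OHT and a non-targeting siRNA, and 4OHT_siSMARCA4 cells received 4OHT and an siRNA against SMARCA4, with 6 libraries in each group, all collected on day 7. The cells of the 3 groups therefore share the transgene and an siRNA transfection, they come from 1 engineered line, and no SMARCA4 knockdown without 4OHT was analysed here. Each group held 3 libraries of siRNA number 2 and 3 of number 4. The libraries also carry a set name ending in V or VM, whose meaning is not given in the sources used here. DMSO_siNT held 3 V and 3 VM libraries, 4OHT_siNT held 6 VM libraries and no V library, and 4OHT_siSMARCA4 held 3 V libraries, 2 VM libraries and 1 whose column is named for set 1VM but matches no sample title. That library, called the library without a set label here, is used by its group and siRNA number, and VM results are given without it unless stated. V and VM sets therefore cannot be compared within 4OHT_siNT, and both main comparisons are also given within VM sets where that changes a call or a value by much.

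The depth was 9657309 to 15407710 counts per library in the siNT groups and 11382143 to 18039313 in 4OHT_siSMARCA4. SMARCA4 itself was at 70.4 to 141 CPM (the count scaled to a common library size, with TMM factors) in 4OHT_siSMARCA4, below every 4OHT_siNT library at 275 to 329.9 CPM. ESR1, whose reads include the receptor part of the transgene, lay at 29.5 to 1316 CPM in DMSO_siNT and at 2021 to 3111 CPM in 4OHT_siNT, and HRAS at 436 to 2852 and 4094 to 5712 CPM. The lowest DMSO_siNT values belong to 1 library, siRNA number 4 in set 2V, which stands apart from its group and is returned to below. The 11 fibroblast markers together gave 16227 to 42837 CPM per DMSO_siNT library, and 23842 to 37639 CPM with 4OHT alone. After knockdown they gave 14595 to 23983 CPM. The summed endothelial, epithelial and neuron or glia markers were each under 23 CPM in every library, and the leukocyte markers summed to 46.1 to 75.9 CPM. In bulk RNA, fewer cells of a type and less RNA per cell cannot be told apart.

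The genes on which the knockdown result turns are SEMA7A (chr15:74409289-74433958, minus strand), PLXNA2 (chr1:208022242-208244384, minus strand) and PLXNA4 (chr7:132123340-132648688, minus strand), all protein-coding genes at GENCODE v44 positions. The 250 bases before the first listed RefSeq start of each are shown (GRCh38.p14, minus strand, 5′ to 3′) because these are the 3 members with the largest fall on knockdown. The GENCODE gene of PLXNA4 begins upstream of its RefSeq start. The windows are chr15:74433959-74434208, chr1:208244385-208244634 and chr7:132576471-132576720, and the capitals mark GGGCGG, the GC box, on either strand.
SEMA7A: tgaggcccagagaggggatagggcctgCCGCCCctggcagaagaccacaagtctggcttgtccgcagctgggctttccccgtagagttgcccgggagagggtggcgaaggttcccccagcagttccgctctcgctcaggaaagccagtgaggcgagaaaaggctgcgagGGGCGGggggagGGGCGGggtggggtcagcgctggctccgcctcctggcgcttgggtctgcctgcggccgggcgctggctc
PLXNA2: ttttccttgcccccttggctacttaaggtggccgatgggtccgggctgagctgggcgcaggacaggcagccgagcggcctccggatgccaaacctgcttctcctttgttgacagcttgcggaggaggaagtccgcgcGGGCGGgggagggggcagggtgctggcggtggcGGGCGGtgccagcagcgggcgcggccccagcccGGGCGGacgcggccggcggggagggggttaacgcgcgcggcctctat
PLXNA4: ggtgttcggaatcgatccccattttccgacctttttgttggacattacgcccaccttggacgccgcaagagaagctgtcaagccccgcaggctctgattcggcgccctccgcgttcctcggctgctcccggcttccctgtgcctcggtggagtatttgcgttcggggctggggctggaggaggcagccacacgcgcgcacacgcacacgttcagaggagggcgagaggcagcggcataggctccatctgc
SEMA7A and PLXNA2 each held 3 matches of GGGCGG and PLXNA4 held none. Of all 35116 RefSeq windows of this length, 42.6% held GGGCGG, against 30 of the 48 windows of the 27 member genes that were matched in the RefSeq table. TGANTCA, the AP-1 motif, was searched on both strands as well, was present in 6.57% of all windows and in 1 of the 48 member windows, and did not occur in the windows shown.

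Of the 31 members, 27 passed the filter on low counts and were tested. SEMA5B had 0 counts in all 18 libraries, where 3 counts correspond to 0.166 to 0.311 CPM, so it was not detectable at this depth. SEMA3G had 0 to 2 counts in each library, and SEMA4A had 3 to 7 counts per DMSO_siNT library and 0 to 5 in the other libraries. SEMA6B, at 0.428 to 1.89 CPM in DMSO_siNT and 0.162 to 0.956 CPM in the 4OHT groups, passed only in the fit by siRNA number. Per kilobase of exon, the most abundant members in DMSO_siNT were PLXNB2 at 58.4 ± 23.8, SEMA7A at 31.4 ± 21.8 and NRP1 at 28.4 ± 8.15 CPM per kb (mean ± SD, n = 6), which do not separate beyond their spread. In 4OHT_siNT, SEMA7A came first at 149 ± 14.6 CPM per kb, beyond the spread of PLXNB2 at 81.1 ± 6.01, followed by SEMA3C at 28.7 ± 1.37 and NRP1 at 25.4 ± 0.961. In 4OHT_siSMARCA4, PLXNB2 at 60.02 ± 8.27 and SEMA7A at 42.0 ± 23.0 CPM per kb again overlapped in their spread.

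The comparison of 4OHT_siNT with DMSO_siNT asked how these genes differ between senescent and growing cells. Both ligands and receptors were called in both directions between these groups, but several receptor calls were lost within VM sets or in other alternatives given below. SEMA7A, SEMA3C, SEMA4B, SEMA4C, PLXNA2, PLXNA4 and NRP2 were among the genes that rose, and SEMA3B, SEMA3D, SEMA3E, SEMA4G and SEMA6A were among those that fell. By edgeR's quasi-likelihood test with Benjamini-Hochberg adjustment over all 13136 genes tested, 19 of the 27 members passed an adjusted p of 0.05, 10 higher and 9 lower. Of all genes tested, 52.8% were called, 23.9% higher and 28.9% lower. Without set 3VM, 11 members were called, and the share of all genes called in that fit is not given here. The median log2 fold change was 0.25 over the members and -0.05 over all genes. The 6 libraries of each group did not overlap for 11 of the 27 members, 6 higher and 5 lower, against 33.8% of all genes tested (17% higher and 16.8% lower).

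**Figure D1:**
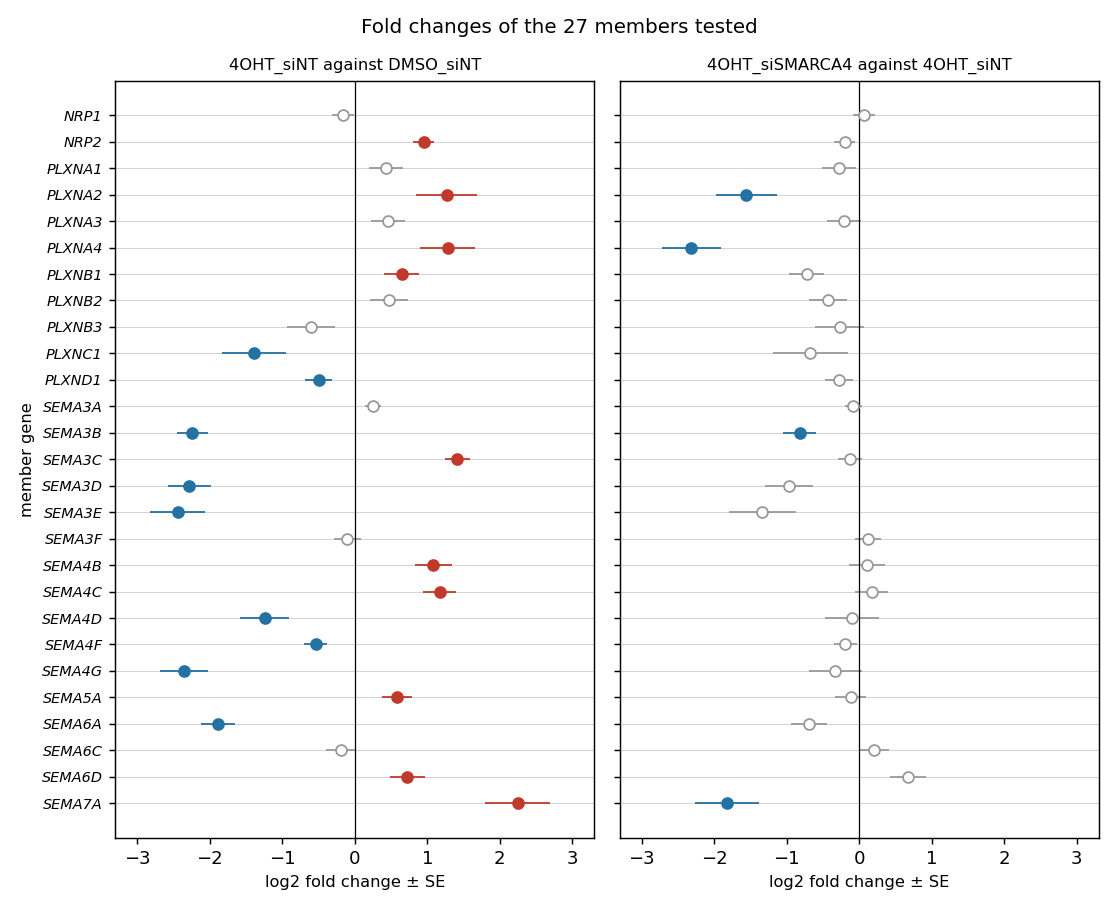
Log2 fold change with its standard error (x axes) of the 27 members tested (y axis), for 4OHT_siNT against DMSO_siNT on the left and 4OHT_siSMARCA4 against 4OHT_siNT on the right. Filled points passed the adjusted p of 0.05, red for higher and blue for lower: 10 red and 9 blue on the left, and 4 blue on the right.

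Among the class 3 semaphorins, the secreted members that signal mostly through neuropilin and plexin A complexes, 1 of 6 tested rose and 3 fell. That is 66.7% called, against 52.8% of all genes. SEMA3C ranged from 45.9 to 99.6 CPM with a median of 60.7 in DMSO_siNT, and from 168 to 191 CPM with a median of 173 in 4OHT_siNT. Each 4OHT_siNT library was above each DMSO_siNT library, with a log2 fold change of 1.41 ± 0.17 (SE, edgeR adjusted p = 1.1e-06). SEMA3A, the archetypal repellent of axons, lay at 106 to 171 CPM and at 159 to 195 CPM, and its log2 fold change of 0.25 did not pass (edgeR adjusted p = 0.073). SEMA3F, a ligand of NRP2, lay at 33.9 to 112 and 62.7 to 86.8 CPM with a log2 fold change of -0.10.

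The 3 class 3 genes that fell were low-count genes with groups that did not overlap. SEMA3B, a secreted semaphorin described as a tumour suppressor, lay at 9.93, 13.7 and 17.96 CPM (lowest, median and highest library) in DMSO_siNT and at 2.05, 2.95 and 4.14 CPM in 4OHT_siNT, a log2 fold change of -2.24 ± 0.22 (SE, edgeR adjusted p = 5.2e-08). SEMA3D went from 5.02, 10.6 and 16.5 CPM to 1.16, 2.00 and 3.84 CPM, a log2 fold change of -2.28 ± 0.30 (edgeR adjusted p = 2.6e-06). SEMA3E, which binds PLXND1 without a neuropilin, went from 4.55, 5.26 and 9.20 CPM to 0.223, 1.04 and 2.01 CPM, a log2 fold change of -2.44 ± 0.38 (edgeR adjusted p = 2.1e-05). SEMA3A, SEMA3C, SEMA3D and SEMA3E lie within 4.44 megabases on chromosome 7 (GENCODE v44), and over this stretch 1 gene rose, 2 fell and 1 did not pass. SEMA3B shares its locus with the antisense gene SEMA3B-AS1, which had at most 2 counts in any library, and whether reads were counted by strand is not given in the sources used here.

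**Figure D2:**
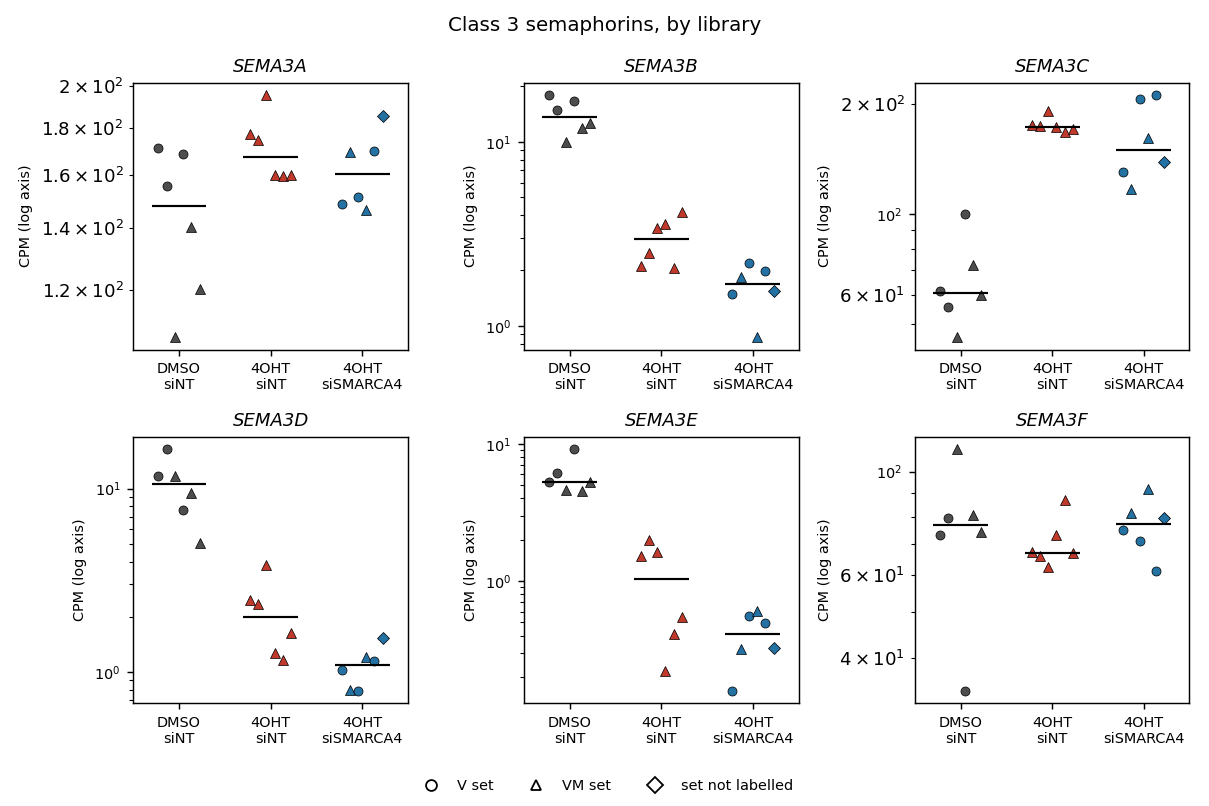
CPM on a log axis of the 6 class 3 semaphorins tested, 1 point per library, by group on the x axis, with the median as a line and the set letters as the symbol. SEMA3C sits higher and SEMA3B, SEMA3D and SEMA3E sit lower in the 4OHT libraries, while SEMA3A and SEMA3F overlap between groups.

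The class 4 semaphorins, transmembrane ligands of the plexins B, had 5 of 6 members tested, and these 5 were called, against 52.8% of all genes. SEMA4B lay at 4.66, 23.7 and 26.3 CPM in DMSO_siNT and at 36.4, 46.1 and 54.5 CPM in 4OHT_siNT, a log2 fold change of 1.08. SEMA4C, a ligand of PLXNB2, lay at 4.90, 20.8 and 23.0 CPM and at 37.2, 42.1 and 49.1 CPM, a log2 fold change of 1.17. SEMA4G went the other way, from 2.75, 6.91 and 8.48 CPM to 0.510, 1.03 and 1.98 CPM, a log2 fold change of -2.36 ± 0.33 (SE, edgeR adjusted p = 5.8e-06). For each of these genes the groups did not overlap. SEMA4D, the ligand of PLXNB1 known as CD100, was at 0.510, 1.34 and 1.91 CPM and at 0.234, 0.550 and 0.742 CPM, with a log2 fold change of -1.25 that within VM sets was -0.86 (edgeR adjusted p = 0.080). SEMA4F fell by 0.54 on the log2 scale, from 8.01, 14.0 and 16.9 CPM to 7.39, 9.31 and 10.7 CPM, with overlapping groups, and the call was lost with siRNA number 4 only (edgeR adjusted p = 0.99). SEMA4G overlaps MRPL43 on the opposite strand, and the reads of the pair cannot be told apart if strand was not used in counting.

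Of the remaining transmembrane semaphorins, SEMA6A, a ligand of PLXNA2 and PLXNA4, fell from 6.57, 13.1 and 18.2 CPM to 2.4998, 3.33 and 3.77 CPM, a log2 fold change of -1.89 ± 0.23 (SE, edgeR adjusted p = 1.5e-06). The groups did not overlap. SEMA6D, a ligand of PLXNA1, rose by 0.73 on the log2 scale, from 17.7, 46.4 and 99.8 CPM to 73.1, 82.4 and 99.3 CPM, but its groups overlapped and the change within VM sets was 0.40 (edgeR adjusted p = 0.11). SEMA5A rose by 0.58 on the log2 scale, from 28.0, 68.9 and 77.6 CPM in DMSO_siNT to 81.2, 86.0 and 105 CPM in 4OHT_siNT. The SEMA5A call was lost in 7 of 36 alternatives, among them without DMSO_siNT 4-3VM or 4OHT_siNT 2-1VM (edgeR adjusted p = 0.057 and 0.052). SEMA6C, at 1.79 to 5.43 and 2.49 to 4.60 CPM, did not pass with a log2 fold change of -0.19.

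SEMA7A, a semaphorin held at the membrane by a GPI anchor that binds PLXNC1 and beta-1 integrins, showed the largest rise of the members. Its 6 DMSO_siNT libraries lay at 17.9, 52.3, 83.1, 148, 176 and 238 CPM, and its 4OHT_siNT libraries at 510.4, 524, 549, 559, 589 and 664 CPM. The groups did not overlap, and within DMSO_siNT the 3 V libraries were the 3 lowest. SEMA7A rose by 2.24 ± 0.45 on the log2 scale (SE, edgeR adjusted p = 0.00034). Restricted to VM sets, the rise was 1.60 (edgeR adjusted p = 2.8e-07).

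Among the receptors, 5 of 9 plexins were called, and NRP2 but not NRP1. PLXNA2 lay at 0.717, 2.73 and 9.07 CPM in DMSO_siNT and at 4.53, 7.77 and 11.4 CPM in 4OHT_siNT, a log2 fold change of 1.27 ± 0.42 (SE, edgeR adjusted p = 0.016). PLXNA4, a receptor in class 3 and class 6 signalling, lay at 0.510, 0.930 and 2.499 CPM and at 1.365, 2.90 and 3.84 CPM, a log2 fold change of 1.28 ± 0.38 (edgeR adjusted p = 0.0077). Both genes overlapped between the groups, and within VM sets neither passed, at log2 fold changes of 0.65 (edgeR adjusted p = 0.13) for PLXNA2 and 0.92 (edgeR adjusted p = 0.068) for PLXNA4.

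PLXNC1, the plexin that binds SEMA7A, went the other way from its ligand. It was at 0.714, 1.69 and 3.21 CPM in DMSO_siNT and at 0.297, 0.535 and 1.16 CPM in 4OHT_siNT, a log2 fold change of -1.39 ± 0.45 (SE, edgeR adjusted p = 0.014). The groups overlapped, and within VM sets the log2 fold change was -0.40 (edgeR adjusted p = 0.54). PLXND1, the receptor of SEMA3E, fell by 0.50 on the log2 scale, from 53.5, 115 and 131 CPM to 56.9, 73.9 and 95.6 CPM (edgeR adjusted p = 0.033), with overlapping groups. The PLXND1 call was lost or reversed in 15 of 36 alternatives, among them any of DMSO_siNT 2-1V, 2-2V, 2-2VM and 4-2VM or 4OHT_siNT 2-1VM, 2-2VM and 2-3VM left out (edgeR adjusted p of 0.051 to 0.083), and in the fit by siRNA number its change was -1.02 ± 0.21 with number 2 and 0.02 ± 0.21 with number 4. PLXNB1 rose by 0.64 on the log2 scale, from 12.7, 50.8 and 71.3 CPM to 66.9, 74.3 and 79.4 CPM, with overlapping groups. The PLXNB1 call was lost in 6 of 36 alternatives, among them without DMSO_siNT 4-3VM (edgeR adjusted p = 0.054). NRP2, the co-receptor that prefers SEMA3F, rose from 27.2, 47.2 and 55.7 CPM to 72.2, 82.7 and 96.9 CPM without overlap, a log2 fold change of 0.95 ± 0.14 (edgeR adjusted p = 1.8e-05). NRP1, the co-receptor that prefers SEMA3A, lay at 188, 332 and 436 CPM and at 279, 297 and 306 CPM, and its log2 fold change of -0.16 did not pass.

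PLXNA1, PLXNA3, PLXNB2 and PLXNB3 did not pass over the whole groups. PLXNB2 lay at 95.0, 503 and 542 CPM in DMSO_siNT and at 529.9, 588 and 639.7 CPM in 4OHT_siNT. PLXNA1 lay at 44.9, 178 and 199 CPM and at 178, 199.7 and 230.3 CPM, and PLXNA3 at 46.4, 169 and 179 CPM and at 154, 208 and 247 CPM. PLXNB3 lay at 4.18, 27.5 and 30.4 CPM and at 10.9, 14.2 and 20.4 CPM. The lowest DMSO_siNT value of each was that of 4-2V, and the groups overlapped. In the fit by siRNA number, PLXNA1, PLXNA3 and PLXNB2 passed with number 4, whose 3 DMSO_siNT libraries include 4-2V, and PLXNB3 passed with number 2. In that fit 14 of 28 members were called with number 2, 5 higher and 9 lower, against 37.2% of all genes (17% higher and 20.2% lower). With number 4 there were 16, 11 higher and 5 lower, against 52.1% (23.1% higher and 29% lower). No member passed the edgeR test of the difference between these effects (10 of 28 at an unadjusted p under 0.05, against 23.9% of all genes), and 0% of all genes did. Between the siNT controls in DMSO, no member passed in edgeR (11 of 28 at an unadjusted p under 0.05, against 28.3% of all genes). The share of all genes that passed was 0.0512%, all lower with siNT 4.

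The comparison of 4OHT_siSMARCA4 with 4OHT_siNT asked what SMARCA4 knockdown did to these genes in senescent cells. SEMA7A, PLXNA2, PLXNA4 and SEMA3B fell and no member rose. These are 4 of the 27 members tested, against 10.6% of all genes called by the same edgeR test, 4.99% higher and 5.65% lower. At an unadjusted p under 0.05 there were 9 of the 27 members, against 24.7% of all genes. The median log2 fold change was -0.27 over the members and 0.01 over all genes, and all 9 plexins had a fitted change below 0, of which 2 passed. For 5 of the 27 members the groups did not overlap, 4 lower and 1 higher, against 11.4% of all genes (6.27% lower and 5.12% higher). The count of called members was 12 with siRNA number 2 only, 0 with siRNA number 4 only and 1 without set 3VM. It was 10 without DMSO_siNT 4-2V, 7 within VM sets and 8 with DESeq2, and it was 2 without 4OHT_siNT 2-3VM or without 4OHT_siSMARCA4 2-3V, 4-2VM or the library without a set label. The share of all genes called in each of these alternative fits is not given here, so these counts are not set against it. The 4OHT_siNT libraries are shared with the comparison above, so the fall of a gene here and its rise there rest in part on the same libraries.

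SEMA7A lay at 78.6, 84.4, 105, 171, 223 and 296 CPM in 4OHT_siSMARCA4, against 510.4 to 664 CPM in 4OHT_siNT. The groups did not overlap, and the 3 highest knockdown libraries were the V sets. Its log2 change came to -1.82 ± 0.44 (SE, edgeR adjusted p = 0.012). The knockdown mean was 28.2% of the 4OHT_siNT mean. Within VM sets the log2 fold change was -2.60 (edgeR adjusted p = 1.1e-06). The call was lost in 4 of 35 alternatives. These were siRNA number 4 only (edgeR adjusted p = 0.45), without set 2VM (0.090) or set 3VM (0.097), and a replicate block on the set labels, given in the last section.

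**Figure D3:**
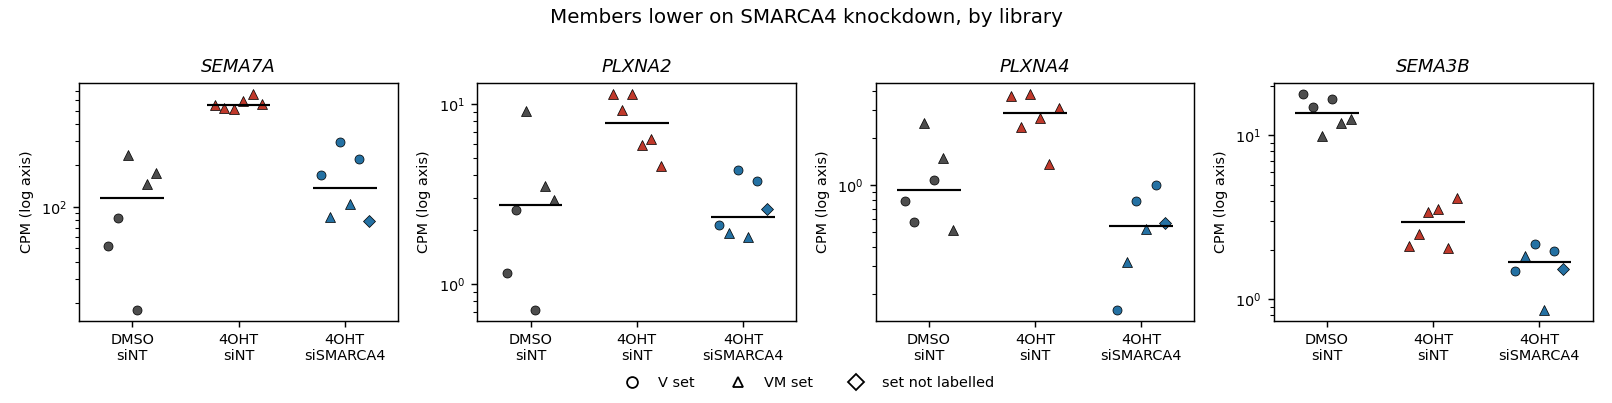
CPM on a log axis of SEMA7A, PLXNA2, PLXNA4 and SEMA3B, 1 point per library, by group on the x axis, with the median as a line and the set letters as the symbol. For SEMA7A, PLXNA2 and PLXNA4 the 4OHT_siSMARCA4 libraries lie below the 4OHT_siNT libraries without overlap, and SEMA3B is lower in both 4OHT groups than in DMSO_siNT.

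PLXNA2 lay at 1.82, 2.36 and 4.26 CPM in 4OHT_siSMARCA4 against 4.53, 7.77 and 11.4 CPM in 4OHT_siNT, a log2 fold change of -1.56 ± 0.42 (SE, edgeR adjusted p = 0.023). PLXNA4 lay at 0.158, 0.542 and 0.990 CPM against 1.365, 2.90 and 3.84 CPM, a log2 fold change of -2.32 ± 0.41 (edgeR adjusted p = 0.0012). Both genes separated the groups completely, but PLXNA4 rests on 2 to 14 counts per knockdown library and 20 to 52 per 4OHT_siNT library. SEMA3B lay at 0.864, 1.68 and 2.19 CPM against 2.05, 2.95 and 4.14 CPM, a log2 fold change of -0.82 ± 0.23 (edgeR adjusted p = 0.028), with groups that overlapped. The PLXNA4 call was lost in 2 of 34 alternatives, siRNA number 4 only, at -1.64 (edgeR adjusted p = 0.26), and the replicate block on the set labels. Within VM sets each of the 4 genes passed, at -2.13 for PLXNA2, -2.76 for PLXNA4 and -1.12 for SEMA3B. The PLXNA2 call was lost in 11 of 34 alternatives, at an edgeR adjusted p of up to 0.62, among them siRNA number 4 only. It was also lost, with an edgeR adjusted p of 0.050 to 0.057, when 4OHT_siNT 2-1VM or 2-3VM, or 4OHT_siSMARCA4 2-3V, 2-3VM, 4-2VM or the library without a set label was left out. The SEMA3B call was lost in 12 of 35 alternatives, at an edgeR adjusted p of up to 0.42, among them siRNA number 4 only. It was also lost, at 0.055 to 0.070, without 4OHT_siNT 2-3VM, 4-1VM or 4-3VM, or 4OHT_siSMARCA4 2-3V, 4-2VM or the library without a set label.

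Several members sat just outside the threshold. PLXNB1, the receptor of SEMA4D, lay at 40.1, 43.4 and 52.0 CPM in 4OHT_siSMARCA4, all below 4OHT_siNT, with a log2 fold change of -0.73 (edgeR adjusted p = 0.056). SEMA6D lay at 113, 133 and 159 CPM, all above 4OHT_siNT at 73.1 to 99.3 CPM, with a log2 fold change of 0.67 (edgeR adjusted p = 0.088). SEMA3D at -0.97, SEMA3E at -1.34 and SEMA6A at -0.69 on the log2 scale had edgeR adjusted p of 0.066, 0.070 and 0.082. DMSO_siNT 4-2V has no part in the contrast itself but in the shared estimate of the spread. With this library left out of the fit, PLXNB1, SEMA3E and SEMA6D were among the members that passed, at edgeR adjusted p of 7.3e-05, 0.030 and 0.0058. PLXNB2, with a knockdown mean at 74.0% of the 4OHT_siNT mean, did not pass in the main fit but gained the call in 6 of 35 alternatives.

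The class 4 semaphorins and the neuropilins had no called member on knockdown, where 10.6% of all genes were called. SEMA4B and SEMA4C, which rose with 4OHT, had knockdown levels of 38.99 to 64.1 and 35.5 to 52.2 CPM that overlapped 4OHT_siNT, and log2 fold changes of 0.10 and 0.17. SEMA3C, at 117 to 211 CPM, had a log2 fold change of -0.13, and NRP2, at 65.9 to 80.7 CPM, had -0.20. PLXNC1 was at 0 to 0.561 CPM and its log2 fold change of -0.67 did not pass.

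The comparison of 4OHT_siSMARCA4 with DMSO_siNT, which shares arms with both others, gives each gene's net position against growing cells. It called 15 of the 27 members, 5 higher and 10 lower, against 50.5% of all genes (23.3% higher and 27.3% lower). The groups did not overlap for 11 members, 5 higher and 6 lower, against 29.6% of all genes (14.3% higher and 15.3% lower). SEMA3C, SEMA4B, SEMA4C, SEMA6D and NRP2 were higher, by 0.75 to 1.40 on the log2 scale, and SEMA3E at -3.78, SEMA3D at -3.25 and SEMA3B at -3.06 were the lowest. SEMA7A did not pass, at 0.42 ± 0.43 (SE, edgeR adjusted p = 0.44). Its value depends on the set letters: in V sets the knockdown libraries lay at 171 to 296 CPM against 17.9 to 83.1 CPM in DMSO_siNT, and in VM sets at 84.4 to 105 CPM against 148 to 238 CPM. The groups did not overlap within either set type, and the direction was opposite, with a log2 fold change of -1.003 within VM sets (edgeR adjusted p = 0.00037).

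The knockdown change was also taken by siRNA number. A number names different oligonucleotides in the siNT and siSMARCA4 arms, so a difference between numbers also holds the difference between the controls. With siRNA number 2, PLXNA2, PLXNA4, SEMA3D, SEMA3E and SEMA7A fell, 5 of 28 members tested, against 7.67% of all genes (2.83% higher and 4.85% lower). With number 4 no member was called in edgeR (4 of 28 at an unadjusted p under 0.05, against 17.9% of all genes), while 2.71% of all genes were called (1.54% higher and 1.16% lower). SEMA7A changed by -2.24 ± 0.65 with number 2 and by -1.55 ± 0.63 with number 4 on the log2 scale, and the difference of 0.69 ± 0.88 did not pass (edgeR adjusted p = 0.96). For PLXNA4 the values were -3.22 ± 0.59 and -1.64 ± 0.53, and for PLXNA2 -2.26 ± 0.56 and -0.78 ± 0.54. No member passed the edgeR test of the difference (3 of 28 at an unadjusted p under 0.05, against 7.28% of all genes), while 0.0146% of all genes did. SEMA3E had a difference of 3.13 ± 0.59 (edgeR adjusted p = 0.12) and passed with DESeq2 (adjusted p = 0.015) and in edgeR without DMSO_siNT 4-2V (adjusted p = 0.014).

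**Figure D4:**
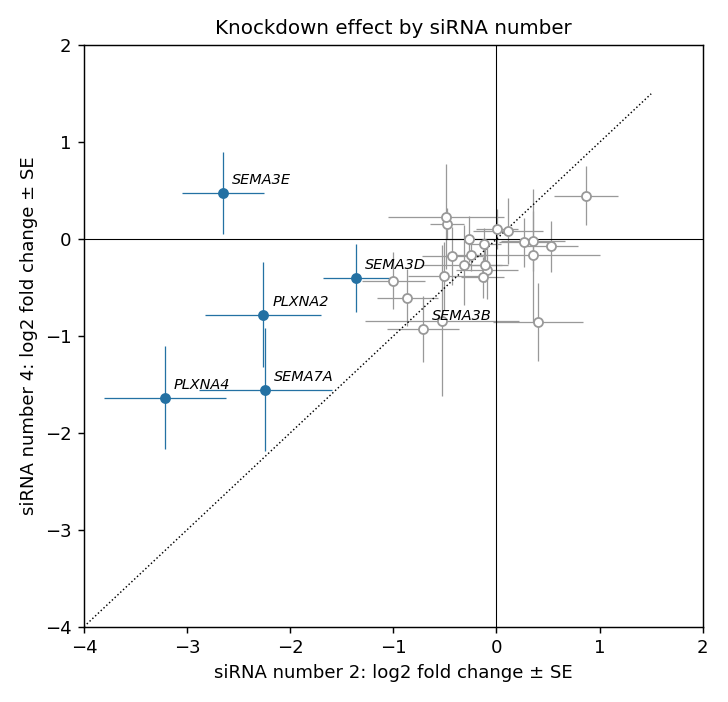
Log2 fold change of 4OHT_siSMARCA4 against 4OHT_siNT with its standard error, for siRNA number 2 (x axis) and number 4 (y axis), 1 point per member tested, filled where it passed with number 2. PLXNA4, SEMA7A and PLXNA2 lie below 0 on both axes, and SEMA3E lies far from the dotted line of equal change.

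SEMA3E differed between the non-targeting siRNAs. In 4OHT_siNT its 3 libraries of siNT 2 lay at 1.53 to 2.01 CPM and its 3 of siNT 4 at 0.223 to 0.547 CPM without overlap, on 3 to 7 counts per siNT 4 library. The log2 fold change of siNT 4 against siNT 2 was -2.11 ± 0.37 (edgeR adjusted p = 0.041), the only member called in this comparison, against 0.0732% of all genes. In DMSO_siNT the 2 controls lay at 4.64 to 6.18 and 4.55 to 9.20 CPM. The knockdown change of SEMA3E was -2.65 ± 0.40 with number 2, whose control is the high one, and 0.48 ± 0.42 with number 4, and the knockdown libraries themselves lay at 0.158 to 0.323 and 0.495 to 0.605 CPM. The call among controls was lost with DESeq2 size factors in edgeR, and when any 1 of the 6 4OHT_siNT libraries, any 4OHT_siSMARCA4 library but 4-2VM, or DMSO_siNT 2-1V, 2-2V or 4-3VM was left out. Between the SMARCA4 siRNAs themselves, no member passed in edgeR or DESeq2 (2 of 28 at an unadjusted p under 0.05, against 6.43% of all genes), while 0.00732% of all genes were called in edgeR.

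The other genes of the pathway were described by lists chosen with earlier results known. Of 34 tested intracellular partners of plexins, 10 rose and 8 fell with 4OHT, 52.9% called against 52.8% of all genes, with a median log2 fold change of 0.09. LIMK1, a kinase of cofilin, rose by 1.59 ± 0.28 on the log2 scale, MICAL2, an actin-oxidising enzyme, by 1.16 and SH3BP1, a RAC GTPase-activating protein, by 0.70. FES changed by -3.24 ± 0.31, RRAS2, a RAS-like GTPase, by -2.23 and DPYSL2, the collapsin response mediator CRMP2, by -1.363. On knockdown 2 rose and 3 fell, 14.7% called against 10.6% of all genes. These were RND3, which binds plexins, at 0.73 ± 0.14, RAP1B at 0.31, SH3BP1 at -1.12 ± 0.20, LIMK2 at -0.72 and FYN, a SRC family kinase, at -0.61, and the median was -0.12.

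Of 10 tested co-receptors and other semaphorin receptors, 4 rose and 3 fell with 4OHT, 70.0% called against 52.8% of all genes. FLT1, a VEGF receptor, rose by 2.25 ± 0.39 on the log2 scale, L1CAM, a cell adhesion molecule, by 2.05 and ITGA1, a partner of the beta-1 integrin that SEMA7A binds, by 1.63. CHL1 changed by -3.12 ± 0.60, MET by -2.11 and ERBB2 by -1.38, the latter both receptor tyrosine kinases that pair with plexins B. On knockdown CHL1 rose by 2.25 ± 0.62, and NRCAM at -1.80, L1CAM at -1.17 and ITGA1 at -1.03 were among 4 that fell. So 5 of 10 were called, against 10.6% of all genes, with a list median of -0.88. Of the 4 VEGF ligands tested, VEGFA rose by 2.20 ± 0.13 and PGF by 1.05 with 4OHT, and on knockdown VEGFA rose by 0.51 and no other passed.

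Of 8 proteases that cleave semaphorins or neuropilins, 2 rose and 5 fell with 4OHT, 87.5% called against 52.8% of all genes. MMP14, which sheds membrane proteins, rose by 1.87 ± 0.22 on the log2 scale and FURIN, which processes class 3 semaphorins, by 0.84, while ADAMTS1 at -0.98, PCSK7 at -0.90 and ADAM9 at -0.65 fell. On knockdown only ADAMTS1 passed, at -0.41, 12.5% of the list against 10.6% of all genes. The other axon guidance families, with 26 genes tested, held 10 that rose and 5 that fell with 4OHT, 57.7% called against 52.8% of all genes. The largest rises were ROBO4 at 4.53 ± 0.20, DRAXIN at 3.82 and NTN1, a netrin, at 3.35, and the largest falls were SLIT2 at -2.86 ± 0.22, NTN4 at -2.18 and ROBO2 at -1.53. On knockdown 1 rose and 10 fell, 42.3% called against 10.6% of all genes, with medians of -0.43 for the list and 0.01 for all genes. NTN1 rose by a further 2.20 ± 0.27, and the ephrin receptors EPHB6 at -3.04 ± 0.58, EPHB1 at -1.93 and EPHB3 at -1.83 fell most.

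Markers of cell types also moved. With 4OHT 1 fibroblast marker rose and 6 of the 11 fell, 63.6% called against 52.8% of all genes. On knockdown 7 fell, 63.6% against 10.6% of all genes, including COL1A2 at -1.46 ± 0.24 and COL1A1 at -1.42 on the log2 scale. Endothelial markers summed to 4.51 to 11.8 CPM per DMSO_siNT library, 9.57 to 15.6 CPM with 4OHT alone and 8.99 to 13.3 CPM after knockdown, and CLDN5 and VWF, 2 of the 3 tested, rose with 4OHT. Neuron or glia markers summed to 14.2 to 22.6, 16.2 to 20.3 and 4.49 to 12.3 CPM, with SYT1 falling on knockdown and SOX10 at 0 in every library. Epithelial markers summed to 5.42 to 11.4, 2.77 to 3.34 and 0.808 to 2.99 CPM, with KRT5 and SFTPC at 0 in every library. Leukocyte markers summed to 46.1 to 75.9 CPM over all libraries, and the 1 marker tested was not called. The part of these markers in the results above was not tested.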

How the data were processed

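RNA from IMR90 ER:RAS cells was poly(A)-selected and sequenced from directional libraries. Per the labels' processing notes, the authors used STAR 2.7.8a, the hg38 build and DESeq2 1.36.0, and the table the authors deposited holds raw counts by gene symbol. The counting tool, annotation and strand setting are not given in the sources used here.

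The 2 lanes of each library were summed to 18 libraries, 6 per group, taken from the labels. Of 29 labelled samples, 17 matched columns and 12 were not analysed here. 1 library, of siRNA number 2 in 4OHT_siSMARCA4, has a column named for set 1VM that no sample title matches, so it was left out of VM sets and added to them in an alternative. The 13136 genes kept by filterByExpr (minimum count 10) were fitted in 1 model over 3 groups with edgeR 4.0.16 (R 4.3.3, TMM scaling, quasi-likelihood test), and 13659 genes in a model of group by siRNA number. Genes were called at a Benjamini-Hochberg adjusted p under 0.05. The common biological coefficient of variation was 23.3%. The fits were also run on simulated data, and the outcome of that run is not given here. Nothing says that libraries came from separate cultures, so p-values measure only the spread between these libraries. The members and lists were chosen with earlier results of these data known. Members were described with their lowest, median and highest library where called on knockdown, among the 10 largest changes with 4OHT, or called by siRNA number, and others by range or fold change. List genes were named for the up to 3 largest rises and falls. Alternatives included DESeq2 1.42.0, other scalings and filters, VM sets only, single siRNA numbers, and each library or set left out. Positions came from GENCODE v44 and promoters from RefSeq (GRCh38.p14). Each SE comes from the fit and each SD from the libraries of a group, so both include the spread between libraries. Floors cover counting error only, with 3 counts as the floor.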

Additional observations from a re-analysis of the deposited data

Results flagged for a closer look

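In 15 of the 81 sets of 6 libraries compared (27 members in 3 groups), 1 library lay far from the other 5, by the gap to its nearest neighbour divided by the whole spread of the 6, taken as log2(CPM + 0.1). Chance flags about 1 in 20 such sets. Of these, 9 fell on DMSO_siNT 4-2V, each time as the lowest library of its group, and the cause was not tested. The shares there were 0.628 for PLXNA1 (44.9 CPM), 0.794 for PLXNA3 (46.4 CPM), 0.658 for PLXNB1 (12.7 CPM), 0.782 for PLXNB2 (95.0 CPM) and 0.785 for PLXNB3 (4.18 CPM). They were 0.646 for SEMA3F (33.9 CPM), 0.898 for SEMA4B (4.66 CPM), 0.899 for SEMA4C (4.90 CPM) and 0.738 for SEMA6C (1.79 CPM).

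In 4OHT_siSMARCA4, PLXNB2 was highest in 4-2V at 555 CPM (share 0.710), PLXNC1 was lowest in 4-2VM at 0 CPM (share 0.856) and SEMA4C was lowest in 4-3V at 35.5 CPM (share 0.662). In 4OHT_siNT, SEMA3C was highest in 2-3VM at 191 CPM (share 0.676) and SEMA4D was lowest in 4-3VM at 0.234 CPM (share 0.664). SEMA4D was also lowest in DMSO_siNT 4-3VM at 0.510 CPM (share 0.630).

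SEMA7A moved in opposite directions between 4OHT_siSMARCA4 and DMSO_siNT in the V and VM sets. The log2 ratio of the group means was 2.17 in V sets and -0.99 in VM sets, with every library of one group above the other within each set type. This difference was not tested.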

How the results depend on the processing

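Of 2834 fold changes of single genes recomputed under the alternatives, 2615 kept their direction and side of the threshold, 109 lost the call, 105 gained it and 5 reversed. The reversed values were PLXND1 with 4OHT at 0.050 in siRNA number 4 only, and in 4OHT_siSMARCA4 against DMSO_siNT PLXNA1 at -0.37 and PLXNB2 at -0.40 in siRNA number 2 only and SEMA7A at -1.003 in VM sets and -1.09 in VM sets with the library that matches no title, an alternative chosen after seeing the data. The counts of members that follow are given without the share of all genes that each alternative called. With 4OHT, 19 members were called, 11 with a replicate block on the set labels, and 11 to 23 with a library or set left out. On knockdown, 4 were called. The count was 8 with DESeq2, 7 in VM sets, 12 in VM sets with that library, 9 with only the 2 groups compared, 12 with siRNA number 2 only, 0 with siRNA number 4 only and 0 with the replicate block, and 1 to 11 with a library or set left out. 4OHT_siSMARCA4 against DMSO_siNT called 15, and 14 to 17 with a library or set left out. For the difference between siRNA numbers the count was 0, 1 with DESeq2 and 0 to 1 with a library left out. Between the siNT controls it was 1, 0 with DESeq2 size factors in edgeR, 0 with at least 10 counts in every library and 0 to 3 with a library left out, and between the SMARCA4 siRNAs 0, and 0 to 1. The cause was not tested. Under the replicate block the knockdown changes were -1.56 for SEMA7A (edgeR adjusted p = 0.43), -2.15 for PLXNA4 (0.16), -1.34 for PLXNA2 (0.45) and -1.05 for SEMA3B (0.070). Deviations of same-set libraries correlated at -0.12 to 0.17 between 4OHT_siNT and 4OHT_siSMARCA4, over 4 pairs. The 26 pairs from different sets gave -0.25 to 0.25, so these few pairs cannot decide whether the set labels pair the libraries. Low counts limit PLXNA4, PLXNC1, SEMA3E and SEMA4D.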
